A study of Mus musculus with 46 samples.

Results

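The VEGF and angiopoietin signalling genes examined here were the 10 rows of the expression table named Vegfa, Vegfb, Vegfc, Angpt1, Angpt2, Kdr, Flt1, Nrp1, Tek and Tie1, out of 53465 genes in all. They comprise 5 ligands, which were read in each sorted source population, and 5 receptors, which were read first in the CD31+ endothelial cells. The rule was this list of gene names. The study compared wild-type mice after sham surgery, after unilateral ureteric obstruction (UUO, a ligature on the ureter that injures and scars the kidney) and after reversal of that obstruction by reimplanting the ureter (rUUO). Male C57BL/6 mice aged 8 to 12 weeks were used, all of 1 genotype, and kidneys were sorted by flow cytometry into LTL+ proximal tubular (PT) cells, F4/80+ macrophages, CD31+ endothelial cells and PDGFRB+ stromal cells. The obstructed kidneys of the study were taken on day 2 or day 7, the labels do not say which day a UUO sample belongs to, and rUUO kidneys were taken 14 days after reversal. The values used came from 4 sham, 3 UUO and 4 rUUO endothelial samples, from 3, 4 and 3 PT samples, from 4 stromal samples of each surgery, and from 4, 4 and 3 macrophage samples.

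The VEGF family drives the growth and upkeep of blood vessels. Its ligand VEGF-A acts mainly through the receptor tyrosine kinase VEGFR2, encoded by Kdr, while VEGFR1, encoded by Flt1, binds VEGF-A and VEGF-B tightly but signals weakly and so limits how much ligand reaches VEGFR2. Neuropilin-1, encoded by Nrp1, is a co-receptor of VEGFR2, and VEGF-C acts on VEGFR3 of lymphatic vessels and on VEGFR2. The angiopoietins bind Tie2, the product of Tek: angiopoietin-1 activates it and stabilises vessels, angiopoietin-2 mostly opposes this at sites of remodelling, and Tie1 is an orphan relative that pairs with Tie2. In the kidney, podocytes and tubular cells are known sources of VEGF-A for glomerular and peritubular capillaries, whose loss accompanies scarring.

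Values are FPKM, a fragment count scaled to the length of the transcript and the size of the library, which allows levels of different genes to be compared per length. The FPKM of all genes summed to between 586929 and 884982 in the 44 samples used, 9502 to 14464 genes reached 1 FPKM, and mitochondrial genes took 20.2% to 75.6% of the sum. The table holds no read counts, so absolute depth is unknown. Relative depth, read from the steps between low values, lay between 0.577 and 1.58 times the median sample. Pearson's r across genes between samples of 1 group was 0.876 to 0.965. The labelled cell types carried their own markers in sham kidneys. The summed level of 5 endothelial markers (Pecam1, Cdh5, Emcn, Egfl7, Eng) was 2909 to 3390 FPKM in endothelial cells and 11.0 to 18.5 FPKM in PT cells, and that of 5 stromal markers (Pdgfrb, Pdgfra, Col1a1, Col3a1, Dcn) was 998 to 2510 FPKM in stromal cells and 31.0 to 56.9 FPKM in endothelial cells. The stromal sort also held transcripts of other cells, with 215 to 279 FPKM for the endothelial list and 241 to 314 FPKM for the thick ascending limb list (Umod, Slc12a1, Cldn16) in sham.

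The starts of 8 of the 10 genes are represented in the RefSeq promoter windows for GRCm38.p6 (250 bases before to 50 after a transcript start). Angpt1 and Angpt2 had no entry. Of the windows below, those of Kdr and Flt1, receptors of the same ligand, are shown for their values in endothelial cells. These shifted differently after surgery, but neither gene nor their ratio passed a test after adjustment. Nrp1 and Tek are shown as the receptors lower in stromal cells after surgery, and Vegfa as the ligand lower in endothelial cells. Capitals mark the core of the hypoxia-inducible factor element (ACGTG or GCGTG, either strand) and AGGAAG (either strand). The latter is a form of the sites bound by ETS factors and is called the ETS core here. The marked stretches do not overlap in these windows. All are written 5′ to 3′ on the strand of the gene.
Kdr, chr5:75978406-75978705, minus strand: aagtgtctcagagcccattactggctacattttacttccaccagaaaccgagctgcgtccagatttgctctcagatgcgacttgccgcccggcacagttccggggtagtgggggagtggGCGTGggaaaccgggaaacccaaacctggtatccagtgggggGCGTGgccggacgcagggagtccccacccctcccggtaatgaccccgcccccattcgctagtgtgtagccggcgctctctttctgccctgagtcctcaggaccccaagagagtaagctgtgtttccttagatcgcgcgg
Flt1, chr5:147725962-147726261, minus strand: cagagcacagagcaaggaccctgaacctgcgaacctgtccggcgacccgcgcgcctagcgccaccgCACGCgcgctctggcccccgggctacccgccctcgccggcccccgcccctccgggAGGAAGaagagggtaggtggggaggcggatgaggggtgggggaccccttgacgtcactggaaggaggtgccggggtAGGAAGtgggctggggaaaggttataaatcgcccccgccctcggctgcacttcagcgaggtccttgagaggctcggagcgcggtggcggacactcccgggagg
Nrp1, chr8:128358823-128359122, plus strand: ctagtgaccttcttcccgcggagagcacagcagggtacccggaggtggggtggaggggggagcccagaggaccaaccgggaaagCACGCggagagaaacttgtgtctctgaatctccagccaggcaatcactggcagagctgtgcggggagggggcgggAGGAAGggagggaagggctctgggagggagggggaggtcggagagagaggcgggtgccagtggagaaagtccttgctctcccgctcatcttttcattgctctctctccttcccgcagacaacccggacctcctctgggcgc
Tek, chr4:94739039-94739338, plus strand: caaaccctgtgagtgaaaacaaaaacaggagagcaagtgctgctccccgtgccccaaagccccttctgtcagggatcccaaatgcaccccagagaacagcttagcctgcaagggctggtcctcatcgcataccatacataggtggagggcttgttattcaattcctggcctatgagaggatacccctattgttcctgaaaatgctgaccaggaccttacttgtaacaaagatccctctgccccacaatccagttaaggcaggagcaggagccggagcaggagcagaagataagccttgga
Vegfa, chr17:46032328-46032627, minus strand: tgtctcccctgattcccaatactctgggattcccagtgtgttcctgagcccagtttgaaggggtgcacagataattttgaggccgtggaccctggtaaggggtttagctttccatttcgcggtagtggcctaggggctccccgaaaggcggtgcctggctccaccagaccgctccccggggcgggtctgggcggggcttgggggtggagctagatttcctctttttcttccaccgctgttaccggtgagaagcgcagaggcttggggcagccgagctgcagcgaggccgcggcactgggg
Vegfa, start within the gene, chr17:46025114-46025413, minus strand: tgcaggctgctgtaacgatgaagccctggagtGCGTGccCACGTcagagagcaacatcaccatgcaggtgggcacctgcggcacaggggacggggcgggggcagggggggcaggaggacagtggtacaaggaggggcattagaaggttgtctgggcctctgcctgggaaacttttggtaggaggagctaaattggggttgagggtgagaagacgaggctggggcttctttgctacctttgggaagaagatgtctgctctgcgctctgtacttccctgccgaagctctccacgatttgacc
The hypoxia core was present in 5 of the 9 windows of the 8 genes and in 43.8% of 32851 promoters. The ETS core was present in 3 of the 9, those of Flt1, Nrp1 and Tie1, and in 35.4% of all promoters. The Kdr window held 2 hypoxia cores and no AGGAAG, and the Flt1 window held 1 hypoxia core and 2 ETS cores. The Tek window held neither of these letter strings. The upstream Vegfa window held neither, while the window inside the gene held 2 hypoxia cores a few bases apart. Only these exact letters were searched, so a window without AGGAAG can still hold shorter or other forms of an ETS site. Such matches describe the letters of these windows and are not evidence of binding.

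In sham kidneys the receptors marked the endothelium, while the ligands were spread over several populations. Kdr had 328 ± 73.5 FPKM in endothelial cells (SD, n = 4), Flt1 200.4 ± 54.6, Tek 144 ± 28.4 and Tie1 69.7 ± 20.9 (SD, n = 4 each). In stromal cells, the next highest, the same genes had 5.56 ± 0.513, 4.73 ± 1.92, 15.6 ± 2.65 and 0.868 ± 0.363 FPKM (SD, n = 4 each). Each of these 4 receptors was higher in endothelial than in stromal cells by limma, with adjusted p between 8.28e-11 (Tek) and 1.18e-19 (Tie1). Nrp1 was the exception among the receptors. It had 292 ± 88.7 FPKM in endothelial and 254 ± 36.8 FPKM in stromal cells (SD, n = 4 each), which did not differ beyond their spread (limma adjusted p = 0.66, log2 difference 0.15 ± 0.20 SE). It was lower in macrophages (39.7 ± 3.37 FPKM) and lowest in PT cells (2.62 ± 0.624 FPKM).

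Among the ligands, Vegfa was highest in endothelial cells at 42.8 ± 15.3 FPKM (SD, n = 4), followed by PT cells at 21.6 ± 6.18 (SD, n = 3), stromal cells at 18.7 ± 5.07 (SD, n = 4) and macrophages at 2.86 ± 2.18 (SD, n = 4). Neighbours in the upper part of that order did not differ beyond their spread (limma adjusted p = 0.076 for endothelial against PT cells and 0.72 for PT against stromal cells). Endothelial cells exceeded stromal cells (limma adjusted p = 0.047), and stromal cells exceeded macrophages (limma adjusted p = 4.07e-06). Angpt2 had the steepest order. It had 57.9 ± 12.8 FPKM in stromal and 12.8 ± 3.11 FPKM in endothelial cells (limma adjusted p = 4.56e-06) against 1.30 ± 1.09 in macrophages and 0.327 ± 0.0252 in PT cells. Its counterpart Angpt1 was low everywhere, with 2.49 ± 0.214 FPKM in stromal, 1.48 ± 0.544 in endothelial, 1.45 ± 0.662 in PT cells and 0.085 ± 0.037 in macrophages. Vegfc was highest in endothelial cells (12.3 ± 2.28 FPKM) and then in stromal cells (5.70 ± 1.38 FPKM, limma adjusted p = 0.040). Vegfb spanned 3.85 ± 1.67 FPKM in macrophages to 9.35 ± 2.43 FPKM in stromal cells, and no neighbours in its order differed beyond their spread. Further apart in that order, stromal cells exceeded macrophages (limma adjusted p = 0.0056) and endothelial cells (limma adjusted p = 0.028). Over the 6 pairs of populations, 42 of the 60 gene and pair combinations passed the threshold. The members called numbered 7 of 10 for endothelial against PT cells (60.6% of all 14332 genes tested), 8 of 10 for endothelial against stromal (23.7%), 9 of 10 for endothelial against macrophages (43.4%), 7 of 10 for PT against stromal (65.5%), 4 of 10 for PT against macrophages (61.7%) and 7 of 10 for stromal against macrophages (46.2%).

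**Figure D1:**
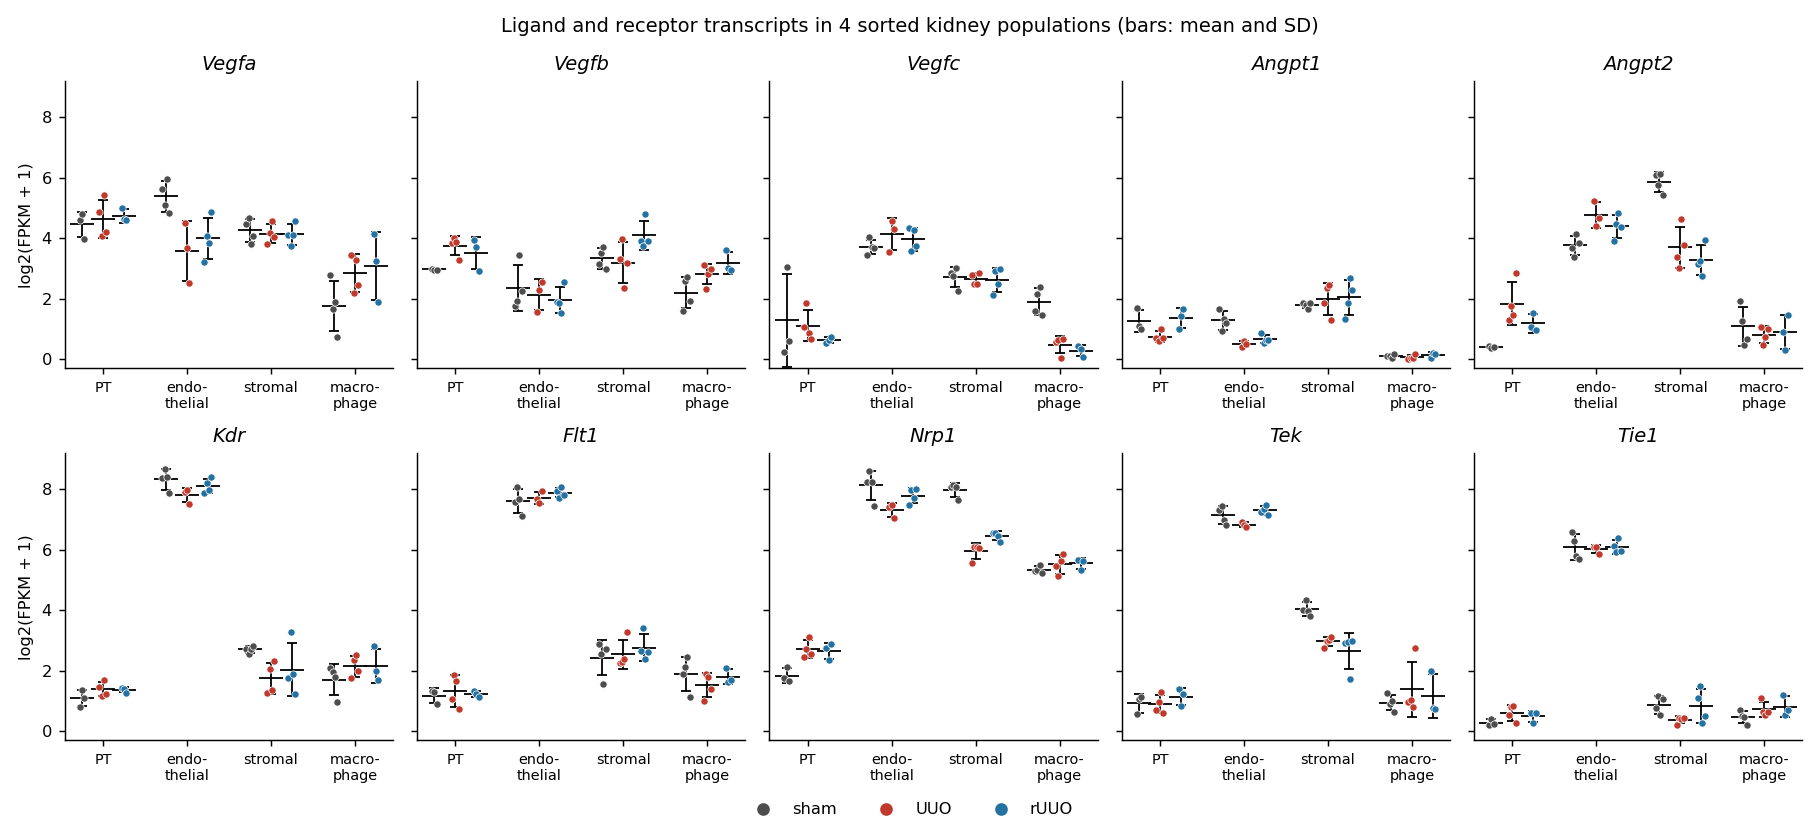
Level of each of the 10 genes as log2(FPKM + 1) in every sample of the 4 sorted populations (points, coloured by surgery), with mean and SD as bars. Kdr, Flt1, Tek and Tie1 sit highest in the endothelial samples, Nrp1 is shared with stromal cells (292 against 254 FPKM in sham), and stromal Angpt2 drops from a sham mean of 57.9 FPKM after UUO and rUUO.

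In endothelial cells, Vegfa was the only member that passed the test after obstruction. It had 48.6, 33.6, 61.5 and 27.6 FPKM in sham replicates 1 to 4, 21.7, 11.9 and 4.81 FPKM in UUO replicates 1, 2 and 4, and 8.23, 16.0, 13.4 and 28.0 FPKM in rUUO replicates 1, 2, 4 and 6. All UUO samples lay below all sham samples, and after reversal 3 of the 4 samples did, replicate 6 having reached the lowest sham value. The log2 change of FPKM + 1 was -1.81 ± 0.44 (SE) for UUO against sham (limma adjusted p = 0.047) and -1.39 ± 0.41 for rUUO against sham, which did not pass (limma adjusted p = 0.11). The UUO call was lost in 6 of the 7 fits that left out 1 of its samples, with limma adjusted p between 0.054 and 0.165 without sham replicate 1, 2, 3 or 4 or without UUO replicate 2 or 4. It also did not hold with a pseudocount of 0.1 (limma adjusted p = 0.051) or without the filter (limma adjusted p = 0.22). In these sorted samples, fewer cells of a type and less RNA per cell cannot be told apart.

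Transcripts of other kidney cells, some of them known sources of VEGF-A, were present in the endothelial sort. The thick ascending limb list, of which 1 of 3 genes fell in UUO (Slc12a1), summed to 131 to 640 FPKM in sham, 47.8 to 168 after UUO and 58.8 to 196 after rUUO, with none at 0. Of 5 PT markers 0 were called in UUO and 3 had an unadjusted p under 0.05 (median log2 change -0.995), with sums of 31.7 to 121 FPKM in sham and 13.1 to 38.2 in UUO. Collecting duct markers (0 of 3 called, 2 at an unadjusted p under 0.05, median -1.47) summed to 36.8 to 166 FPKM in sham and 12.9 to 54.8 in UUO. Of the podocyte markers Nphs1, Synpo and Wt1, 0 were called and 2 had an unadjusted p under 0.05, with a median of -0.94 and sums of 37.6 to 81.6 FPKM in sham and 56.4 to 72.7 in UUO. Smooth muscle markers (Acta2, Myh11, Cnn1) had 0 of 3 called and a median of -0.87, and macrophage markers 0 of 4 and 0.21. The part of these transcripts in the Vegfa value was not tested.

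Endothelial Angpt2, the remodelling ligand made by endothelium itself, lay higher after obstruction without passing the test across all genes. It had 11.9, 9.33, 16.8 and 13.3 FPKM in sham, 36.5, 20.1 and 24.5 in UUO and 14.03, 21.2, 27.9 and 19.6 in rUUO. Every UUO sample exceeded every sham sample, and the rUUO samples overlapped both groups. The log2 change was 1.00 ± 0.29 (SE) for UUO (limma adjusted p = 0.10) and 0.64 ± 0.27 for rUUO against sham (limma adjusted p = 0.29). Vegfc had 9.85 to 15.3 FPKM in sham, 10.6 to 22.9 after UUO and 10.9 to 19.2 after rUUO, with overlapping groups. Vegfb had 2.39 to 9.98, 1.95 to 4.92 and 1.86 to 4.88 FPKM, also overlapping. Angpt1 was under the filter of a mean of 1 FPKM in endothelial cells and was not tested there; it had 0.9 to 2.2 FPKM in sham, 0.32 to 0.52 after UUO and 0.47 to 0.84 after rUUO, so that every UUO and rUUO sample lay below the lowest sham sample.

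The endothelial receptors did not pass the test in any of the 3 contrasts, but differed in how far their groups lay apart. Kdr had 329, 411, 340 and 232 FPKM in sham, 242, 251 and 184 in UUO and 236, 293, 254 and 336 in rUUO. Only sham replicate 4 lay within the range of the UUO samples, and the log2 change was -0.52 ± 0.20 (SE, limma adjusted p = 0.27). Flt1 had 189.8, 271, 203 and 138 FPKM in sham, 203, 187 and 245 in UUO and 247, 208, 267 and 226 in rUUO. These groups overlapped throughout, with a log2 change of 0.11 ± 0.21 (SE) for UUO against sham (limma adjusted p = 0.88). Nrp1 had 303, 390.2, 299 and 175 FPKM in sham, 168, 178 and 133 in UUO and 179, 249, 208 and 259 in rUUO. The UUO samples were the lowest apart from sham replicate 4, and the log2 change was -0.82 ± 0.24 (SE, limma adjusted p = 0.10). Without sham replicate 4 it was -1.04 (limma adjusted p = 0.013).

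Tek had 159, 175, 127 and 113 FPKM in sham, 119.8, 111 and 108 in UUO and 153, 162, 179 and 141 in rUUO. All rUUO samples lay above all UUO samples, with a log2 difference of 0.48 ± 0.18 (SE) that did not pass across all genes (limma adjusted p = 0.40). Tie1 had 96.1, 76.7, 54.8 and 51.2 FPKM in sham, 66.8, 67.9 and 57.3 in UUO and 69.5, 59.4, 83.8 and 60.9 in rUUO, and its groups overlapped in every contrast (log2 change -0.08 ± 0.23 SE for UUO against sham, limma adjusted p = 0.93). With Angpt1 under the filter, 9 members were tested. In the contrast of UUO with sham, 1 of the 9 tested members was called, where 1.98% of 13393 genes were and 0.702% fell. Of these calls 64.5% were higher, against 48.2% after rescaling without mitochondrial genes. For rUUO against UUO 0 of 9 were called (0.0597% of all genes, 1 member at an unadjusted p under 0.05), and for rUUO against sham 0 of 9 (1.77% of all genes, 2 members at an unadjusted p under 0.05). The groups did not overlap for 2 of 9, 2 of 9 and 0 of 9 members in these contrasts, against 11%, 11.3% and 9.82% of all genes. Over all genes the median log2 change was 0.03, 0.16 and 0.19.

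**Figure D2:**
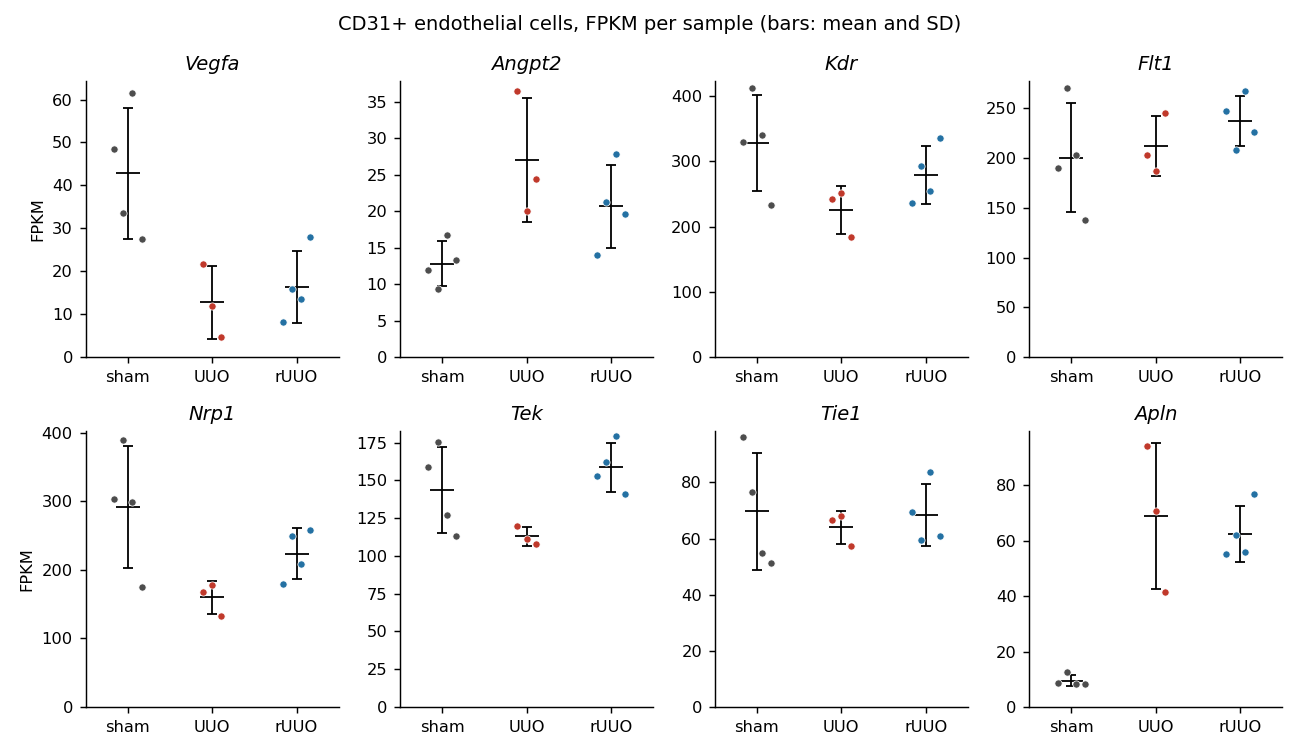
FPKM of Vegfa, Angpt2, the 5 receptors and Apln in each CD31+ endothelial sample (points), by surgery, with mean and SD as bars and axes from 0. Vegfa in UUO (4.81 to 21.7 FPKM) lies below sham (27.6 to 61.5), Angpt2 in UUO (20.1 to 36.5) lies above sham (9.33 to 16.8), and Apln separates sham (8.36 to 12.4) from UUO and rUUO (41.7 to 94.4).

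Ratios formed within a sample depend little on the scaling between samples. Kdr exceeded Flt1 in every sham sample, with log2 ratios of 0.79, 0.60, 0.74 and 0.75. They were 0.25, 0.42 and -0.41 in UUO and -0.07, 0.49, -0.07 and 0.57 in rUUO. Every UUO and every rUUO sample lay below the lowest sham sample, and in 1 of 3 UUO and 2 of 4 rUUO samples Flt1 was the higher transcript. The difference was -0.63 for UUO and -0.49 for rUUO against sham (exact permutation test, p = 0.029 each, adjusted p = 0.061 over the 15 ratio comparisons). The log2 ratio of Angpt2 to Tek was -3.63, -4.09, -2.85 and -3.001 in sham, -1.69, -2.41 and -2.10 in UUO and -3.36, -2.88, -2.64 and -2.78 in rUUO. All UUO samples were above all sham and all rUUO samples, by 1.33 and 0.85 on average (exact permutation test, p = 0.029 and adjusted p = 0.061 for both). The log2 ratio of Tek to Tie1 was 0.83, 0.70 and 0.90 in UUO and 1.13, 1.43, 1.09 and 1.19 in rUUO, so that rUUO was higher by 0.40 (exact permutation test, p = 0.029, adjusted p = 0.061), while sham spanned 0.72 to 1.20. An exact two-sided p of 0.0286 is the smallest that 3 against 4 or 4 against 4 samples allow, and none of the 15 ratio comparisons passed after adjustment.

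**Figure D3:**
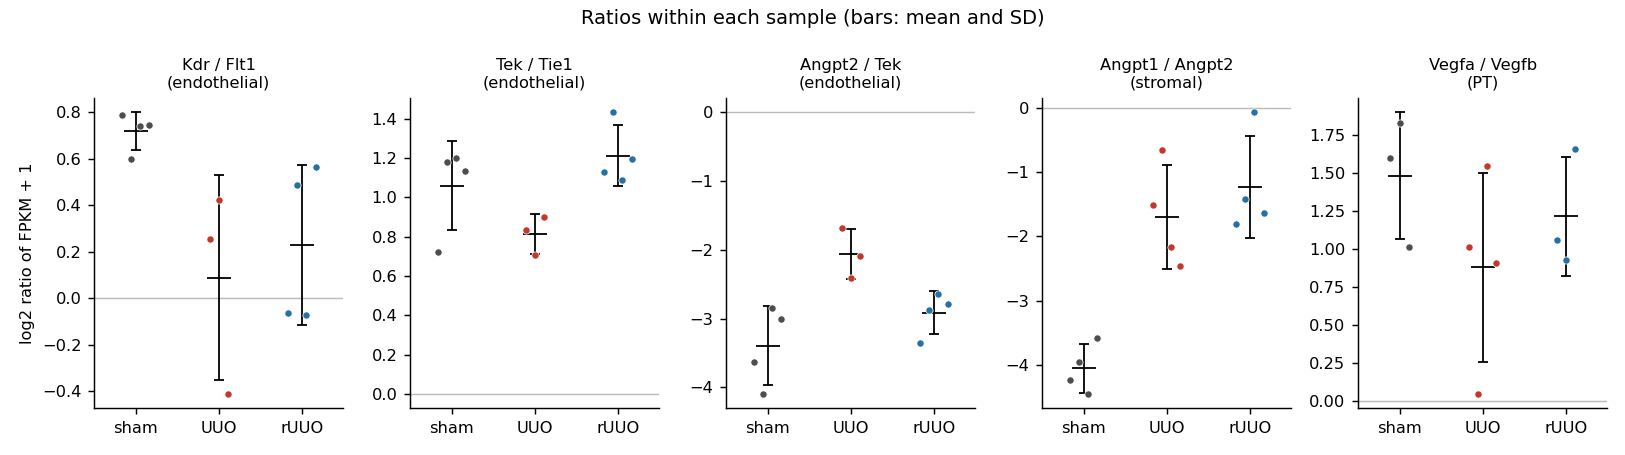
Log2 ratio of FPKM + 1 of pairs of members in each sample (points) by surgery, with mean and SD as bars. Kdr over Flt1 is lower in UUO and rUUO than in sham (sham 0.60 to 0.79), Angpt2 over Tek is highest in UUO, and stromal Angpt1 over Angpt2 is higher in UUO and rUUO than in sham (sham -4.45 to -3.57).

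Genes around the members in the endothelial pathway were read as lists. Beside the list counts, 1.98% of all 13393 genes were called in endothelial UUO against sham and 1.77% in rUUO against sham. Of 8 tested genes known to be induced through VEGF receptors, 3 rose and 0 fell in UUO (list median 0.93, against 0.03 for all genes). Apln, the ligand of the apelin receptor and a tip cell gene, had 8.73, 12.4, 8.36 and 8.37 FPKM in sham, 94.4, 70.8 and 41.7 in UUO and 55.4, 62.0, 55.8 and 77.1 in rUUO. All samples after surgery exceeded all sham samples, by 2.68 ± 0.27 (SE) on the log2 scale for UUO (limma adjusted p = 8.36e-05) and 2.61 ± 0.25 for rUUO (limma adjusted p = 4.28e-05). Nr4a1, an immediate early nuclear receptor, rose by 1.58 ± 0.26 (SE) and 1.44 ± 0.24 (limma adjusted p = 0.0036 and 0.0044). Nr4a1 also lay above sham in every UUO sample of the other populations. It had 0.30 to 0.61 FPKM in PT sham and 1.62 to 2.18 in PT UUO. The ranges were 5.16 to 7.68 and 16.9 to 27.5 in stromal cells, and 6.65 to 8.31 and 18.9 to 31.3 in macrophages. Plvap, a component of fenestral diaphragms, rose in UUO by 1.06 ± 0.26 (limma adjusted p = 0.048). Esm1 (237 ± 58.6 FPKM in sham, 374 ± 86.5 in UUO, limma adjusted p = 0.17) and Dll4 (33.9 ± 6.86 and 53.1 ± 12.7 FPKM, limma adjusted p = 0.27) were not called. Apln and Nr4a1 were the 2 of the 8 that rose in rUUO against sham.

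Of 7 other receptors and co-receptors, 2 rose in UUO and 1 in rUUO against sham, where 1.98% and 1.77% of all genes were called. Nrp2, the neuropilin that partners VEGFR3, had 31.3, 44.7, 29.5 and 23.4 FPKM in sham, 66.0, 57.3 and 58.5 in UUO and 81.1, 70.6, 77.4 and 65.2 in rUUO. Its samples after surgery all exceeded sham, by 0.92 ± 0.22 (SE, limma adjusted p = 0.038) and 1.20 ± 0.20 (limma adjusted p = 0.0044). Nrp2 also lay above sham in every rUUO sample of the other populations, while their UUO samples overlapped sham. In stromal cells it had 25.2 to 32.6 FPKM in sham and 43.3 to 60.85 in rUUO. The ranges were 3.19 to 5.2 and 11.4 to 21.9 in macrophages, and 0.29 to 0.49 and 0.66 to 1.0 in PT cells. Robo4, an endothelial guidance receptor, rose in UUO by 0.72 ± 0.18 (limma adjusted p = 0.0499). Flt4, which encodes VEGFR3, had 46.3 ± 10.01 FPKM in sham, 68.7 ± 6.84 in UUO and 75.6 ± 3.06 in rUUO without passing (limma adjusted p = 0.18 and 0.065). The summed lymphatic endothelial markers (Prox1, Lyve1, Pdpn, Ccl21a) ran from 34.4 to 44.4 FPKM in sham, 36.2 to 192 after UUO and 31.7 to 395.5 after rUUO, with none at 0, and 0 of the 4 were called in either contrast. Their part in the values of Nrp2, Flt4 and Vegfc was not tested. Among 12 tested signal transduction genes, 7 oxygen sensing genes and 6 hypoxia-induced genes, 0 were called in UUO or rUUO against sham in endothelial cells; at an unadjusted p under 0.05 these numbered 1, 1 and 2 in UUO and 0, 0 and 2 in rUUO.

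In stromal cells, Angpt2, Nrp1 and Tek fell after obstruction and were still lower after reversal. Angpt2 had 67.8, 53.2, 68.5 and 41.9 FPKM in sham, 9.41, 7.12, 23.6 and 12.6 in UUO and 7.90, 8.62, 5.75 and 14.3 in rUUO. Every sample after surgery lay below the lowest sham sample. The log2 change was -2.15 ± 0.33 (SE) in UUO (limma adjusted p = 0.00017) and -2.57 ± 0.33 in rUUO (limma adjusted p = 5.63e-05). Nrp1 had 267, 282, 269 and 200.1 FPKM in sham, 46.1, 66.7, 67.8 and 65.5 in UUO and 93.9, 94.0, 87.0 and 76.2 in rUUO. The 3 groups were separate, with rUUO between UUO and sham. The log2 change was -2.04 ± 0.17 in UUO (limma adjusted p = 6.08e-07) and -1.52 ± 0.17 in rUUO (limma adjusted p = 1.68e-05), and the difference of 0.52 ± 0.17 between rUUO and UUO did not pass (limma adjusted p = 0.11).

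Tek, the Tie2 receptor gene, had 15.3, 19.3, 14.9 and 13.04 FPKM in sham, 5.78, 6.96, 7.14 and 7.78 in UUO and 6.54, 6.77, 2.35 and 6.98 in rUUO. All samples after surgery were below all sham samples, by -1.06 ± 0.29 (SE, limma adjusted p = 0.014) and -1.39 ± 0.29 (limma adjusted p = 0.0035) on the log2 scale. Kdr had 4.88 to 6.12 FPKM in sham, 1.41 to 4.01 after UUO and 1.38 to 8.65 after rUUO. Its UUO samples lay below sham but did not pass (log2 change -0.95 ± 0.40, limma adjusted p = 0.096). Flt1 (1.99 to 6.38 FPKM in sham, 3.81 to 8.64 in UUO) overlapped between groups, and Tie1 was under the filter.

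The other stromal ligands among the members did not pass the test. Vegfa had 13.2 to 24.4 FPKM in sham, 13.2 to 23.1 after UUO and 12.4 to 22.8 after rUUO, which overlapped almost completely (log2 change -0.11 ± 0.26 SE for UUO, limma adjusted p = 0.80). Vegfc (3.78 to 7.02 FPKM in sham) and Angpt1 (2.19 to 2.67 FPKM in sham, 1.47 to 4.47 in UUO, 1.54 to 5.45 in rUUO) also overlapped. Vegfb had 6.84 to 12.2 FPKM in sham and 12.6 to 27.1 in rUUO, non-overlapping groups that did not pass (log2 change 0.75 ± 0.34, limma adjusted p = 0.16). The log2 ratio of Angpt1 to Angpt2 was -4.23, -3.96, -4.45 and -3.57 in sham, -1.51, -0.65, -2.17 and -2.46 in UUO and -1.81, -1.41, -0.07 and -1.64 in rUUO. It was higher in all samples after surgery, by 2.35 and 2.82 (exact permutation test, p = 0.029 and adjusted p = 0.061 for both).

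For UUO against sham 3 of the 9 tested members were called in stromal cells, where 26.4% of 14033 genes were, and for rUUO against sham 3 of 9 (17.2% of all genes). For rUUO against UUO 0 of 9 were called (4.17% of all genes; 2 members at an unadjusted p under 0.05). All 3 calls of each contrast fell, where 13% and 5.57% of all genes fell. Of all calls in these contrasts 50.8% and 67.6% were higher, against 39.0% and 51.1% after rescaling without mitochondrial genes. Groups did not overlap for 4 of 9 (UUO against sham), 4 of 9 (rUUO against sham) and 1 of 9 members (rUUO against UUO), against 26.6%, 23.9% and 11.4% of all genes. The median log2 change over all genes was -0.07, 0.15 and 0.19 for UUO against sham, rUUO against sham and rUUO against UUO.

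Markers of several other cell types fell in the same stromal samples, and those of others rose. The endothelial list summed to 215 to 279 FPKM in sham, 69.0 to 135 after UUO and 84.0 to 147 after rUUO, with none at 0 and with 3 of 5 genes lower in UUO (Eng, Pecam1 and, without separate groups, Emcn). The thick ascending limb list summed to 241 to 314, 28.2 to 54.1 and 49.1 to 84.9 FPKM in sham, UUO and rUUO, with 3 of 3 genes lower in UUO. PT markers summed to 28.7 to 44.7, 5.37 to 9.10 and 6.87 to 14.7 FPKM, with 4 of 4 tested genes lower in UUO. Of the podocyte markers 2 of 3 were lower (Wt1 and, without separate groups, Nphs1), with sums of 138 to 199, 54.0 to 110 and 84.6 to 114 FPKM. Collecting duct markers summed to 60.5 to 146, 1.95 to 16.1 and 3.62 to 11.5 FPKM, with 3 of 3 lower. The stromal list itself summed to 998 to 2510 FPKM in sham and 6466 to 11495 in UUO. Smooth muscle markers, of which 2 of 3 rose in UUO (Acta2 and Cnn1, without separate groups), summed to 69.0 to 385 FPKM in sham and 269 to 691 in UUO, lymphatic markers (2 of 3 tested rose) to 11.3 to 23.5 and 20.8 to 63.5, and macrophage markers (1 of 4 tested lower) to 16.1 to 21.2 and 8.50 to 19.7. In sham, the endothelial list thus stood at 215 to 279 FPKM in stromal against 2909 to 3390 FPKM in endothelial cells, while Angpt2 stood at 57.9 against 12.8 FPKM, Nrp1 at 254 against 292 FPKM and Tek at 15.6 against 144 FPKM. Those sham levels concern the endothelial list alone, and the other lists that fell were not set beside the 3 genes in this way. The part of these transcripts and of the makeup of the sort in the 3 falls was not tested.

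Other VEGF ligands moved in stromal cells. Vegfd, a ligand of VEGFR3, had 63.4, 77.2, 111 and 57.6 FPKM in sham, 247, 332, 134 and 463 in UUO and 58.4, 75.3, 89.0 and 96.0 in rUUO. All UUO samples were above all others. It rose by 1.82 ± 0.31 (SE) in UUO (limma adjusted p = 0.00045) and fell by 1.76 on the log2 scale from UUO to rUUO (limma adjusted p = 0.0073). Pgf, placental growth factor and a ligand of VEGFR1, had 14.6, 11.9, 13.4 and 8.55 FPKM in sham, 4.08, 6.53, 2.23 and 1.51 in UUO and 4.30, 3.70, 1.74 and 0.39 in rUUO. All samples after surgery were below sham, by -1.62 ± 0.44 (limma adjusted p = 0.012) and -2.05 ± 0.44 (limma adjusted p = 0.0038). Of the 7 oxygen sensing genes, Hif1a rose (0.99 ± 0.27, limma adjusted p = 0.013) and Epas1, which encodes HIF-2 alpha, fell in UUO (-2.58 ± 0.21, limma adjusted p = 5.70e-07). Of 7 tested hypoxia-induced genes, 2 rose (Adm and Bnip3) and 2 fell (Ndrg1 and Slc2a1). Beside these list counts, 26.4% of all 14033 genes were called in stromal UUO against sham. Of 8 genes known to be induced through VEGF receptors in endothelium, 3 rose (Nr4a1, Egr3 and Apln) and 2 fell (Plvap and Dll4). Apln rose without separate groups, with 0.30 FPKM in UUO replicate 3 and 0.33 to 1.56 in sham. Among 6 other receptors and co-receptors 1 rose (Itgb3), and among 12 signal transduction genes 2 fell, Prkca by -2.82 ± 0.31 (limma adjusted p = 7.32e-06) and Mapk3 by -0.71 ± 0.20 (limma adjusted p = 0.016).

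**Figure D4:**
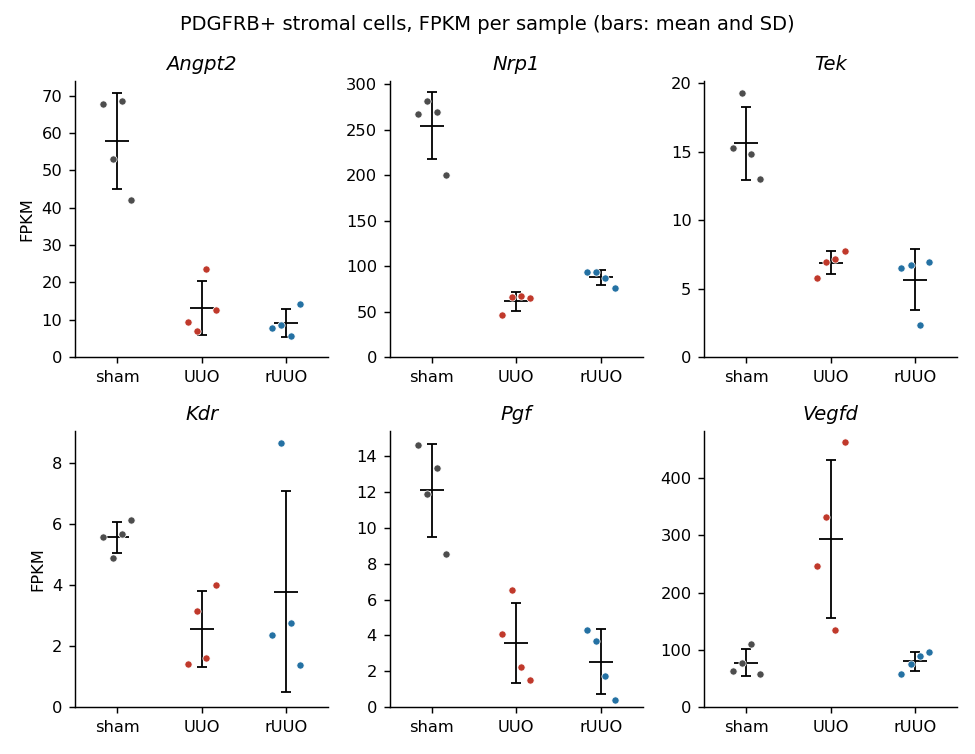
FPKM of Angpt2, Nrp1, Tek, Kdr, Pgf and Vegfd in each PDGFRB+ stromal sample (points), by surgery, with mean and SD as bars and axes from 0. Angpt2, Nrp1, Tek and Pgf are lower in every UUO and rUUO sample than in every sham sample, and Vegfd is high in UUO alone (134 to 463 FPKM).

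In PT cells, the ligand Vegfa did not pass the test in any contrast. Of the 9 tested members, 3 at lower levels than Vegfa rose in UUO, where 27.9% of all 11416 genes rose. Vegfa had 23.2, 26.8 and 14.8 FPKM in sham, 27.9, 15.8, 42.3 and 17.5 in UUO and 31.1, 23.9 and 23.1 in rUUO. The groups overlapped (log2 change 0.18 ± 0.32 SE for UUO, limma adjusted p = 0.68). Slc2a1, a glucose transporter and hypoxia-induced gene, rose in the same samples from 3.34 ± 0.482 to 51.2 ± 5.39 FPKM (log2 change 3.59 ± 0.20, limma adjusted p = 2.15e-08), and 3 of 6 tested hypoxia-induced genes rose while 1 fell. Vegfb had 6.97, 6.82 and 6.79 FPKM in sham and 13.3, 15.2, 13.8 and 8.81 in UUO, and 14.4, 12.1 and 6.61 in rUUO. All UUO samples were above sham (log2 change 0.78 ± 0.28, limma adjusted p = 0.044).

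Angpt2 had 0.35, 0.30 and 0.33 FPKM in PT sham, 1.44, 2.43, 1.75 and 6.20 in UUO and 1.09, 1.92 and 0.94 in rUUO, above sham in every sample after surgery (log2 change 1.44 ± 0.38, limma adjusted p = 0.011 for UUO; 0.78 ± 0.40, limma adjusted p = 0.28 for rUUO). Its sham mean was 0.327 FPKM, so it passed the filter only through the groups after surgery, in which it was high. The UUO call of Angpt2 thus gives no independent support. Without the filter its UUO change was the same (limma adjusted p = 0.046). Nrp1 had 2.39, 3.33 and 2.15 FPKM in sham, 4.45, 5.59, 7.74 and 4.91 in UUO and 5.69, 4.19 and 6.37 in rUUO, also above sham throughout (0.87 ± 0.27, limma adjusted p = 0.026 for UUO; 0.82 ± 0.29, limma adjusted p = 0.11 for rUUO). Tie1 was under the filter in PT cells. For UUO against sham 3 of 9 tested members were called, all of them higher, where 32.8% of 11416 genes were called and 27.9% rose and where the median log2 change of all genes was 0.51. For rUUO against UUO 0 of 9 were called (3.83% of all genes, 0 members at an unadjusted p under 0.05), and for rUUO against sham 0 of 9 (7.46%, 1 member at an unadjusted p under 0.05). After quantile normalization the median of all genes was -0.04, 1218 of 2435 calls were higher against 3186 of 3747 before, and the 3 changes were 0.26 (Vegfb), 0.78 (Angpt2) and 0.26 (Nrp1), with limma adjusted p of 0.59, 0.17 and 0.50. Angpt1, at or under 2.21 FPKM in all PT samples, was then called lower (-1.11, limma adjusted p = 0.017), where its log2 change had been -0.51 (limma adjusted p = 0.23). After rescaling without mitochondrial genes Vegfb (0.55) and Nrp1 (0.75) did not pass (limma adjusted p = 0.18 and 0.080), and Angpt2 did. The Vegfb call was also lost without the filter (limma adjusted p = 0.094), in the fit on all populations (limma adjusted p = 0.097) and without any of PT sham replicates 1, 2 or 4 or PT UUO replicates 1, 2 or 3 (0.70 to 0.79, limma adjusted p 0.082 to 0.104), and the Nrp1 call without PT sham replicate 1 or 4 or PT UUO replicate 3 (0.73 to 0.83, limma adjusted p 0.074 to 0.0995). Marker lists moved in the same PT samples. Endothelial markers summed to 11.0 to 18.5 FPKM in sham and 12.5 to 33.1 in UUO (0 of 5 called), and the stromal list to 15.9 to 21.2 and 21.5 to 48.6 (1 of 3 tested higher, Dcn). Smooth muscle markers summed to 1.15 to 3.16 and 6.52 to 15.8 FPKM, with 2 of 2 tested higher (Acta2 and Myh11), and the thick ascending limb list to 17.7 to 22.1 and 142 to 180 FPKM, with 2 of 3 higher (Umod and Cldn16). Of collecting duct markers 1 of 3 was higher, and 0 of 3 tested macrophage markers were called. The 1 tested gene of the podocyte list (Synpo) and of the lymphatic list (Pdpn) was also higher. The lymphatic list summed to 0.43 to 1.14 FPKM in PT sham, so Pdpn passed the filter only through the groups after surgery. The Pdpn call thus gives no independent support. The PT list itself summed to 1669 to 2272 FPKM in sham and 456 to 614 in UUO, with 5 of 5 lower. No list was at 0. The part of these transcripts in the PT values of Angpt2 and Nrp1, which were low, and of Vegfa, Vegfb and Slc2a1 was not tested.

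In macrophages, Vegfc was the member called lower in both contrasts with sham, at levels near the filter. It had 2.05, 3.47, 4.28 and 1.74 FPKM in sham, 0.50, 0.54, 0.04 and 0.61 in UUO and 0.35, 0.28 and 0.06 in rUUO. All samples after surgery lay below all sham samples. The log2 change was -1.42 ± 0.36 (SE, limma adjusted p = 0.037) and -1.61 ± 0.39 (limma adjusted p = 0.037), on a scale of FPKM + 1 that understates changes at such levels. Its mean exceeded 1 FPKM in sham alone, so that it was tested only through the group in which it was high, and the calls give no independent support. With no filter the changes were the same (limma adjusted p = 0.045 and 0.041), and with a pseudocount of 0.1 they did not pass (limma adjusted p = 0.075 and 0.060). The UUO call was lost without macrophage sham replicate 1 or 2 or UUO replicate 1, 3 or 4 (-1.27 to -1.52, limma adjusted p 0.055 to 0.113), the rUUO call without sham replicate 1 or 2 or any rUUO replicate (-1.51 to -1.71, limma adjusted p 0.062 to 0.136), and without sham replicate 3 Vegfc was under the filter. Vegfa had 0.68 to 5.87 FPKM in sham, 3.61 to 9.99 after UUO and 2.73 to 16.6 after rUUO, overlapping groups with a log2 change of 1.08 ± 0.51 (limma adjusted p = 0.26) and 1.32 ± 0.55 (limma adjusted p = 0.25). Nrp1, the highest member in these cells, had 36.5 to 44.5 FPKM in sham, 34.0 to 57.3 after UUO and 39.8 to 50.1 after rUUO. Angpt1 and Tie1 were under the filter. Of 8 tested members 1 was called for UUO against sham (4.99% of 13332 genes, 2.13% lower), 0 for rUUO against UUO (0% of all genes by limma, 0 members and 945 genes at an unadjusted p under 0.05) and 1 for rUUO against sham (3.44%, 1.55% lower). The summed PT markers in macrophages were 79.5 to 97.2 FPKM in sham, 11.8 to 24.3 after UUO and 12.4 to 14.7 after rUUO, and their part in the Vegfc value was not tested.

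**Figure D5:**
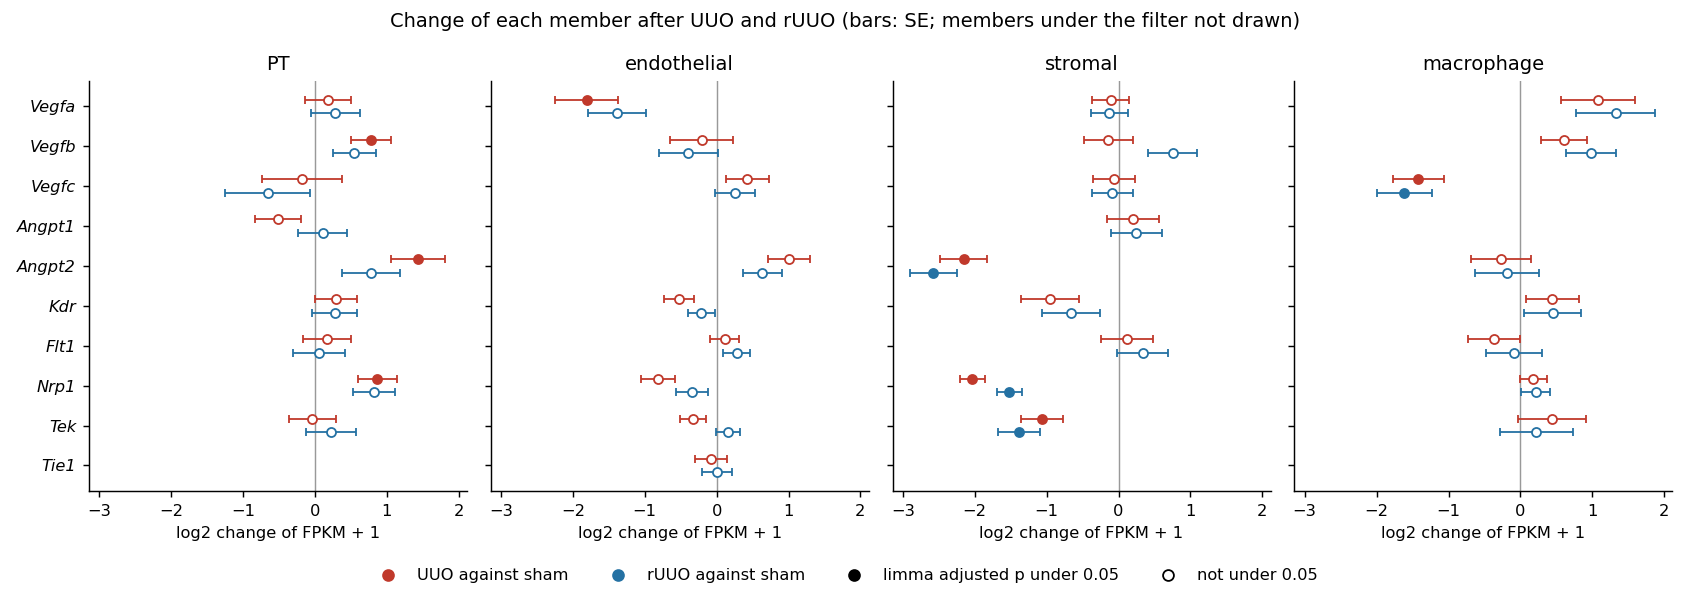
Log2 change of FPKM + 1 with SE for each tested member in the 4 populations, for UUO and rUUO against sham; filled points passed limma at an adjusted p under 0.05. The filled points are endothelial Vegfa (-1.81), stromal Angpt2, Nrp1 and Tek (-2.57 to -1.06), PT Vegfb, Angpt2 and Nrp1 (0.78 to 1.44) and macrophage Vegfc (-1.42 and -1.61).

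The response to obstruction differed between some pairs of populations for some of the members. The difference between the UUO changes of 2 populations was tested for all 10 members in 6 pairs, and 13 of 60 passed. For stromal against PT cells 3 of 10 differed (29.2% of 14332 genes), for stromal against macrophages 4 (16.2%), for endothelial against stromal cells 2 (13.1%), for endothelial against PT cells 2 (11.1%), for PT cells against macrophages 1 (15.5%) and for endothelial cells against macrophages 1 (2.31%). The log2 change of Angpt2 was 1.00 in endothelial and -2.15 in stromal cells, a difference of 3.16 ± 0.50 (SE, limma adjusted p = 1.28e-05). That of Nrp1 was -0.82 in endothelial and -2.04 in stromal cells, a difference of 1.22 ± 0.29 (limma adjusted p = 0.0030), and against PT cells, where it was 0.87, the endothelial change was lower by 1.69 ± 0.30 (limma adjusted p = 9.27e-05). The UUO change of Vegfa in endothelial cells was 2.89 ± 0.62 below that in macrophages (limma adjusted p = 0.0052) and 1.99 ± 0.64 below that in PT cells (limma adjusted p = 0.037). The latter did not hold without endothelial sham replicate 1 or 3, endothelial UUO replicate 2 or 4, PT sham replicate 1 or 4 or PT UUO replicate 1 or 3 (-2.06 to -1.47, limma adjusted p 0.052 to 0.168). It also did not pass with a pseudocount of 0.1, without the filter, after quantile normalization or after rescaling without mitochondrial genes (-2.10 to -1.68, limma adjusted p 0.053 to 0.085).

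The genes whose levels followed a member most closely were found by Pearson's r of log2(FPKM + 1) over the 44 samples, which share population and library so that r is only a description. Tie1 lay closest to Btnl9 (r = 0.993), Mmrn2 (0.992) and Nos3 (0.99), Kdr to Cd300lg (0.992), Cyyr1 (0.989) and Tie1 (0.987), Flt1 to Cyyr1 (0.985), She (0.982) and Cdh5 (0.981), and Tek to Mapk12 (0.976), Ptprb (0.972) and Esam (0.972). Nrp1 lay closest to Atp1b3 (0.97), Ets1 (0.966) and Adgre5 (0.953). Of the ligands, Angpt2 lay closest to Fam13c (0.944), Dkk2 (0.939) and Mcam (0.935), Vegfc to Igfbp3 (0.894), Plpp3 (0.893) and Plpp1 (0.888), and Angpt1 to Snhg18 (0.886), Sdc2 (0.881) and Hoxc10 (0.866). Vegfb and Vegfa had no close neighbour, with the highest r at 0.762 (Cd63) and 0.786 (Bod1).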

How the data were processed

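RNA of sorted LTL+, F4/80+, CD31+ and PDGFRB+ kidney cells was amplified by the Ovation RNA-Seq V2 system before sequencing. The authors deposited FPKM values for 53465 genes on mm10 (GRCm38), and the submitters' processing notes name FastQC, Bowtie2, RSEM and DESeq2, with no versions. Of 46 value columns 44 were used. The other 2 share a title, so neither could be assigned. A PT sample whose title holds both surgeries was grouped by its treatment label. Within each population, limma (trend) was fitted to log2(FPKM + 1), with a pseudocount of 1, keeping genes that averaged 1 FPKM or more, and p was adjusted by Benjamini-Hochberg over all genes (threshold 0.05). A fit on all 12 groups gave differences between populations. It took samples as independent although the 4 populations may come from the same mice (estimated correlation 0.034). Fold changes on this scale understate changes of low genes. For ratios of members, exact permutation tests (two-sided) were run. The members and lists were chosen with earlier results of these data known. Named genes were the 10 members, list genes past the threshold (up to 4 in each direction) and the 3 closest genes of each member; list genes that did not pass are named as context. The values of 1 marker gene are not reported here, and its list was summed and counted without it. The fit was tested on simulated data. Alternatives were a pseudocount of 0.1, no filter, quantile normalization, rescaling without mitochondrial genes, a fit on all populations, a replicate block and each sample left out. The fits used limma 3.58.1 (R 4.3.3), and the rest Python 3.11.15, scipy 1.17.1, pandas 2.3.3, numpy 2.4.6 and, for plots, matplotlib 3.10.9.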

Additional observations from a re-analysis of the deposited data

Results flagged for a closer look

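In 8 of the 80 groups of 4 samples examined for the 10 genes, 1 sample stood apart. On the scale of log2(FPKM + 1), its distance from the nearest other sample made up more of its group's spread than Dixon's test allows. Chance flags about 1 in 20 groups. That distance took a share of 0.864 of the range for stromal Vegfb in rUUO replicate 4 (27.1 FPKM, others 12.6 to 13.96), 0.838 for macrophage Vegfc in UUO replicate 3 (0.04 FPKM, others 0.50 to 0.61) and 0.863 for stromal Flt1 in UUO replicate 4 (8.64 FPKM, others 3.81 to 4.29). It was 0.844 for stromal Nrp1 in sham replicate 4 (200.1 FPKM, others 267 to 282) and 0.911 in UUO replicate 1 (46.1 FPKM, others 65.5 to 67.8), so that for Nrp1 the sample apart was the lowest of its group in both. It was 0.935 for stromal Tek in rUUO replicate 4 (2.35 FPKM, others 6.54 to 6.98), 0.886 for macrophage Tek in UUO replicate 4 (5.75 FPKM, others 0.74 to 1.03) and 0.867 for stromal Tie1 in UUO replicate 1 (0.16 FPKM, others 0.34 to 0.37). Stromal rUUO replicate 4 thus stood apart for Vegfb (high) and for Tek (low).

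The change in UUO differed between populations for 13 of the 60 gene and pair combinations, by limma on the difference itself with an adjusted p under 0.05. Among all 14332 genes, the share that passed ran from 2.31% (endothelial cells against macrophages) to 29.2% (PT against stromal cells). The pairs share populations, so the combinations are not separate results. Angpt2 had the widest differences, with the endothelial change 3.16 and the PT change 3.59 above the stromal change, the PT change 1.71 above that in macrophages and the stromal change -1.88 relative to macrophages. For Nrp1 the endothelial change was -1.69 relative to PT cells and 1.22 relative to stromal cells, the PT change was 2.91 above the stromal change, and the stromal change was -2.21 relative to macrophages. For Vegfa the endothelial change was -1.99 relative to PT cells and -2.89 relative to macrophages. For Kdr, at levels of a few FPKM in these cells, the PT change was 1.25 above the stromal change and the stromal change -1.40 relative to macrophages, and for Tek the stromal change was -1.50 relative to macrophages. The Kdr difference of PT and stromal cells did not pass without PT sham replicate 1 or 4, PT UUO replicate 3 or stromal UUO replicate 1 or 3 (1.09 to 1.26, limma adjusted p 0.051 to 0.082), without the filter (limma adjusted p = 0.052) or after quantile normalization, where it was 0.38 (limma adjusted p = 0.58). The Kdr difference of stromal cells and macrophages did not pass without stromal UUO replicate 1 or macrophage sham replicate 4 (-1.24 and -1.15, limma adjusted p 0.051 and 0.060). The Angpt2 difference of PT cells and macrophages did not pass without PT UUO replicate 4 (1.37, limma adjusted p = 0.051) or after quantile normalization (1.10, limma adjusted p = 0.15). With a pseudocount of 0.1, the stromal and macrophage differences of Angpt2 (-1.83, limma adjusted p = 0.069) and Tek (-1.78, limma adjusted p = 0.052) did not pass. The Vegfa difference of endothelial and PT cells was lost under 4 processing alternatives and without any of 8 single samples.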

How the results depend on the processing

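The 3 stromal members called in UUO and in rUUO against sham passed under every alternative and without any single sample (3 to 4 members in UUO, 3 in rUUO). Other counts of called members moved. In endothelial UUO against sham the count of 1 became 0 with a pseudocount of 0.1, 0 without the filter and 2 in the fit on all populations (Vegfa and Nrp1), and was 0 to 1 with a sample left out. In PT UUO against sham the count of 3 became 1 after quantile normalization (Angpt1, with all 3 others lost) and 1 after rescaling without mitochondrial genes (Angpt2), and was 1 to 3 with a sample left out, while in PT rUUO against sham the fit on all populations called 1 (Nrp1) where 0 had been. In macrophages the count of 1 became 0 with a pseudocount of 0.1 in both contrasts and 0 after quantile normalization in UUO, and was 0 to 1 with a sample left out in both. The Kdr to Flt1 difference of endothelial rUUO and UUO (0.14) ran from -0.11 to 0.31 with a sample left out, and the reversed value, -0.11, was that without endothelial UUO replicate 4. The cause of these shifts was not tested. Across all genes, the count of calls moved by more than 1.5 times as follows. Without the filter, endothelial calls went from 265 to 127 in UUO and from 237 to 116 in rUUO against sham, PT calls from 852 to 484 in rUUO against sham, and macrophage calls from 665 to 364 and from 459 to 303. The fit on all populations called 492 and 489 endothelial genes and 1338 and 965 macrophage genes in the same contrasts. Quantile normalization lowered PT calls in UUO against sham from 3747 to 2435. For rUUO against UUO, the 8 endothelial calls became 4 with a pseudocount of 0.1, 0 without the filter and 86 in the fit on all populations, the 437 PT calls 265 (pseudocount of 0.1), 203 (no filter) and 256 (rescaled), the 585 stromal calls 200 (no filter), 360 (quantile) and 1231 (all populations), and the 0 macrophage calls 1 (no filter), 2 (quantile) and 86 (all populations). Among differences between populations, sham PT against stromal went from 9394 to 6218 after quantile normalization and the change of endothelial cells against macrophages from 331 to 200 with a pseudocount of 0.1.

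Same-numbered samples of different surgeries showed little shared deviation (median r of -0.01 to 0.04 in the 4 populations). For samples of differing numbers the medians were -0.014 to -0.003. A median r over all genes cannot decide whether the numbers pair the samples. With the replicate block, members called in UUO against sham were 0 in endothelial cells, 1 in PT cells, 3 in stromal cells and 0 in macrophages, and in rUUO against sham 0 in macrophages and 3 in stromal cells. Calls over all genes under the block were 101, 0 and 68 in endothelial cells (UUO against sham, rUUO against UUO, rUUO against sham), 160 in PT and 116 in stromal cells for rUUO against UUO, 1574 in stromal cells for rUUO against sham, and 346 and 115 in macrophages for UUO and rUUO against sham. Without counts, no limit on detection could be set for the low values of Angpt1, Tie1 and macrophage Vegfc.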
